A study of Homo sapiens with 30 samples.

Results

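MPC1 encodes a subunit of the mitochondrial pyruvate carrier, and its deletion was compared between 2 human acute myeloid leukemia (AML) cell lines, MV4-11 and THP-1. The genes described here are those whose response to the deletion differed between the lines, which is the contrast (MV4-11 KO minus MV4-11 EV) minus (THP-1 KO minus THP-1 EV) in 12 of the 30 libraries of the series. Of 14490 genes tested, 28 differed at a false discovery rate (FDR) of 5% in edgeR. MV4-11 carries an internal tandem duplication of FLT3 (FLT3-ITD), a growth factor receptor gene, and THP-1 is a monocytic line without it. The knockout (KO) cells of both lines carried a lentiCRISPRv2 construct with a GFP marker and 1 guide RNA against MPC1, and the control cells (EV) a nontargeting empty vector. All cells grew in RPMI medium with serum, glutamine and sodium pyruvate. Each group held n = 3 libraries, numbered 1 to 3 in the labels, which do not say whether replicates were separate infections, clones or cultures, so p-values measure only the spread between these libraries, which may be technical. Each genotype of FLT3 is present here as 1 line, so the effect of FLT3-ITD and every other difference between MV4-11 and THP-1 cannot be told apart. Another line with FLT3-ITD, Molm-14, was deleted for MPC1 in the same way (3 KO and 3 EV libraries) and its effects are given below. Its means are not part of the contrast, but its libraries entered the estimate of the spread by which the genes were called.

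The carrier is a complex of MPC1 and MPC2 in the inner mitochondrial membrane that lets cytosolic pyruvate enter the matrix, where it feeds the TCA cycle and, by way of citrate, the synthesis of fatty acids and cholesterol in the cytosol. Cells that lack it can turn to glutamine, glutamate and fatty acids as other sources of TCA cycle carbon. Genes of lipid synthesis are controlled largely by the SREBP factors, and genes of amino acid supply by ATF4, a factor that is translated when amino acids are short or mitochondria are under stress.

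The 12 libraries held between 5339360 and 8493516 counts, and 14490 of 58051 listed genes passed a filter on low counts. Levels are given as CPM, counts-per-million scaled with TMM factors, and effects as log2 fold changes. The mitochondrial genome supplied 0.14% to 0.452% of all reads counted, with the highest shares in MV4-11 EV 2 (0.452%) and MV4-11 EV 3 (0.392%). The label of AML cells was checked against 14 myeloid identity markers, all of which had counts, and which summed to 7990 to 9680 CPM per library in MV4-11 and 3160 to 3470 CPM in THP-1. Most of the MV4-11 sum was LYZ, at 6082 to 7637 CPM in MV4-11 and 696 to 978 CPM in THP-1. The sums therefore do not rank the lines over the whole list. Of 17 erythroid and megakaryocyte markers, 9 were at 0 in all 12 libraries. This list summed to 19.8 to 27.1 CPM in MV4-11 and 5.81 to 10.5 CPM in THP-1. Most of the MV4-11 sum was EPOR (9.9 to 13.5 CPM) and ITGA2B (8.1 to 11.2 CPM). Of 16 lymphocyte markers 3 (CD3D, CD3G and CD2) were at 0 in all 12 libraries, and the list summed to 171 to 224 CPM in MV4-11 and 72.4 to 102 CPM in THP-1, most of it CD4, which monocytic cells also express (142 to 193 CPM in MV4-11). Of 13 epithelial, fibroblast and endothelial markers 3 (EPCAM, KRT19 and LUM) were at 0 in all 12, and the sum of 70.3 to 121 CPM in MV4-11 and 248 to 293 CPM in THP-1 was mostly PECAM1, also a protein of monocytes (246 to 292 CPM in THP-1).

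The targeted gene was lower in all KO libraries of both lines. MPC1 stood at 56.4, 58.3 and 53.7 CPM in MV4-11 EV and at 26, 24.8 and 23.5 CPM in MV4-11 KO, and at 100, 100 and 90.6 CPM in THP-1 EV and 58.9, 53.2 and 50.3 CPM in THP-1 KO. The EV and KO libraries did not overlap in either line. Its fall was −1.18 on the log2 scale in MV4-11 (SE 0.0973) and −0.84 in THP-1 (SE 0.0908), and the difference of −0.34 (95% interval −0.61 to −0.066) did not pass the threshold (edgeR FDR 0.421). RNA of the targeted gene therefore remained in both KO groups, and the share of edited cells was not measured by these data.

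A small shared response stood beside the differing genes. MPC1, TXNIP, ARRDC4 and CPT1A were called lower in both lines at a 5% FDR. TXNIP, a regulator of glucose uptake that is switched on by sugar phosphates through the MondoA factor, fell by 0.59 on the log2 scale in MV4-11 and by 0.64 in THP-1, with a difference of 0.055 (95% interval −0.18 to 0.29, edgeR FDR 0.941). Its relative ARRDC4, a target of the same factor, differed by −0.15 (95% interval −0.43 to 0.14, edgeR FDR 0.815). CPT1A, which admits long-chain fatty acids to mitochondria for oxidation, differed by 0.034 (95% interval −0.21 to 0.28, edgeR FDR 0.973). Of the intervals of TXNIP, ARRDC4 and CPT1A, no end lay further from 0 than the −0.43 of ARRDC4, while that of MPC1 reached −0.61. Among the differing genes, the 95% intervals of SLC39A10 and ABHD17B began at 0.32. The intervals of shared and differing genes therefore overlapped in size. A p that missed the threshold does not show that the effects were equal.

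Of the 28 genes that differed (0.193% of those tested), 16 (0.11%) had the more positive and 12 (0.0828%) the more negative effect in MV4-11. All were protein coding, and 27 had at least 100 counts on average over the 12 libraries. Within lines, KO against EV called 784 genes (5.41%) in MV4-11 and 13 (0.0897%) in THP-1. Of the 28, 25 were called in MV4-11 alone, 2 (FADS2 and SAMSN1) in THP-1 alone, 1 (SCD) in both with opposite directions, and none in both with the same direction. The within-line counts moved with single libraries: MV4-11 calls were 133 without EV 3, 158 without KO 1, 287 without EV 2, 331 without KO 2 and 1400 without EV 1, and THP-1 calls ranged from 3 without KO 2 to 14 without MV4-11 EV 1. When each of the 12 libraries was left out in turn, 18 to 53 genes differed, and 13 of the 28 passed in every fit. Another 9, those with the highest adjusted p (among them SLC9A7, KCTD12, STK38L, CCR1, HNRNPLL, SLC39A10 and ABHD17B), missed the threshold in 6 to 9 of the 12 fits, and all 28 kept their sign.

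The effects had opposite signs in 23 of the 28, and the effect was larger in size in MV4-11 in 25 of the 28. KO and EV libraries did not overlap in CPM for 26 of the 28 in MV4-11 (24.1% of all tested genes) and for 11 in THP-1 (13.6% of all tested genes). The contrast used these libraries, so nothing is read from these counts.

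**Figure D1:**
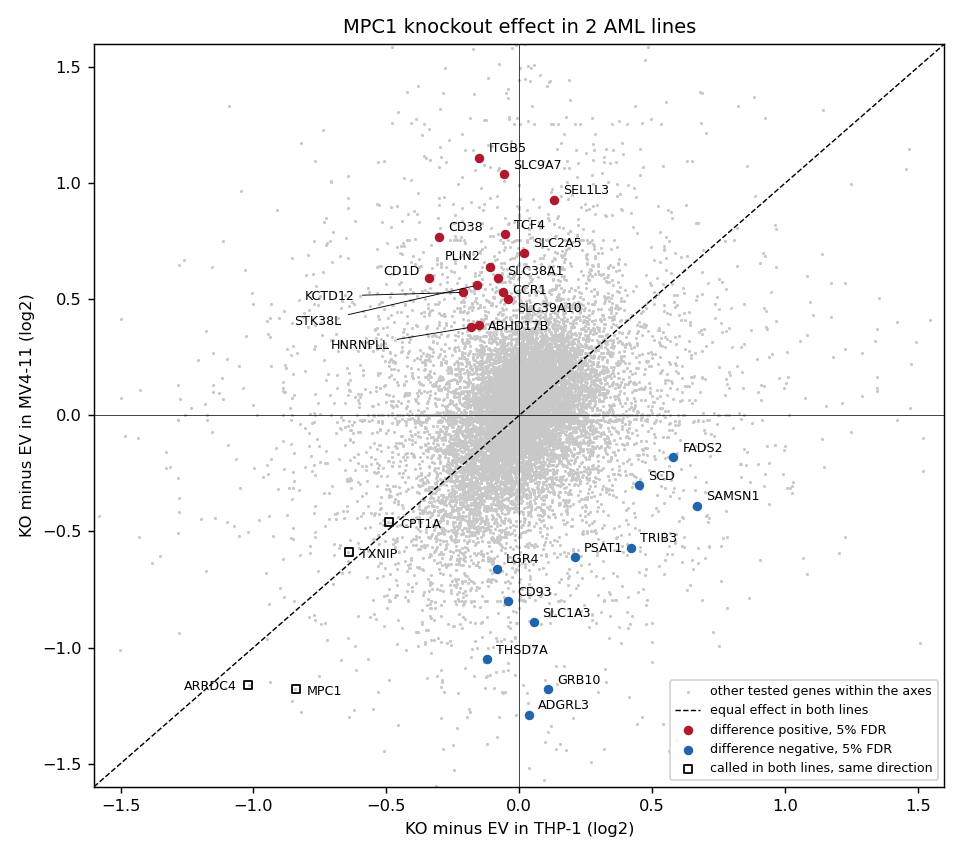
Effect of the MPC1 deletion (KO minus EV, log2) in THP-1 on the x axis and in MV4-11 on the y axis, 1 point per tested gene within the axes, with 26 of the 28 differing genes coloured and named and the 4 genes called in both lines in the same direction as open squares. Tested genes with larger effects are not drawn. The 15 red genes lie above the dashed line of equal effect and the 11 blue genes below it, most of them spread along the MV4-11 axis. Some, among them SCD, FADS2, SAMSN1, TRIB3, CD1D and CD38, also lie away from 0 in THP-1.

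The genes with the more positive effect in MV4-11 included several surface proteins of immune cells. CD38, an ectoenzyme that consumes NAD and makes cyclic ADP-ribose, stood at 10.8, 12.9 and 11.4 CPM in MV4-11 EV and at 22.5, 16.4 and 21.1 CPM in MV4-11 KO. In THP-1 it was far more abundant, at 148, 145 and 151 CPM in EV and 121, 118 and 120 CPM in KO. Its EV and KO libraries did not overlap in either line. The effect was 0.77 in MV4-11 (edgeR FDR 4.33e-04) and −0.30 in THP-1, where it was not called (edgeR FDR 0.337), a difference of 1.07 (SE 0.151, edgeR FDR 5.3e-04). CD1D, which presents lipid antigens to natural killer T cells, followed the same pattern, with 16.8, 18.2 and 17 CPM in MV4-11 EV against 29.2, 26.1 and 23.1 CPM in KO, and 46.7, 43.2 and 41.9 CPM in THP-1 EV against 38.4, 35 and 30.3 CPM in KO. Every KO library lay above every EV library in MV4-11 and below it in THP-1, where the effect of −0.34 was not called (edgeR FDR 0.389), and the difference was 0.93 (SE 0.165, edgeR FDR 0.00817).

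CCR1, the receptor for the chemokines CCL3 and CCL5, was at like levels in the EV cells of both lines. It rose from 60, 57.8 and 50.9 CPM to 78.7, 84.7 and 79.9 CPM in MV4-11, while in THP-1 the EV libraries (62.5, 63.8 and 59.6 CPM) and the KO libraries (59.5, 64.6 and 54.1 CPM) overlapped. The difference of 0.59 (SE 0.127) was the one nearest to the threshold among the 28 genes (edgeR FDR 0.0438), and the gene just outside it was CTSG, a granule protease, with a difference of −0.60 (edgeR FDR 0.0545). ITGB5, the integrin β5 subunit that pairs with αV in a vitronectin receptor, had the lowest counts of the 28, 28 to 110 per library. It stood at 6.85, 6.73 and 4.32 CPM in MV4-11 EV and 13.1, 13.8 and 12.3 CPM in KO, and between 9.06 and 12.3 CPM in the 6 THP-1 libraries, where KO and EV overlapped. The difference was 1.26 (SE 0.242, edgeR FDR 0.0148).

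TCF4, a basic helix-loop-helix factor known as a master regulator of plasmacytoid dendritic cells, was higher in MV4-11 EV than in THP-1 EV. It stood at 192, 206 and 191 CPM in MV4-11 EV and 354, 335 and 327 CPM in KO, with no overlap, and at 52 to 59.4 CPM in THP-1 EV and 53.3 to 54.8 CPM in THP-1 KO. The effect was 0.78 in MV4-11 and −0.055 in THP-1, a difference of 0.84 (SE 0.128, edgeR FDR 0.0017). SEL1L3, a transmembrane protein, stood at 78.8, 72.7 and 72.6 CPM in MV4-11 EV and 151, 141 and 135 CPM in KO, and at 227 to 252 CPM in THP-1 EV and 251 to 271 CPM in THP-1 KO. It was among the 5 genes with effects of the same sign in both lines, 0.93 in MV4-11 and 0.13 in THP-1, and the difference was 0.80 (SE 0.104, edgeR FDR 1.65e-04).

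Several of the called genes encode carriers of nutrients and ions, although in the hand-written list of carriers of amino acids and ions 1 of 19 genes differed (SLC38A1), with a median difference of 0.068. SLC2A5, the fructose transporter GLUT5, stood at 36.3, 32.6 and 35.6 CPM in MV4-11 EV and 55.8, 58.3 and 55.6 CPM in KO, and at 167 to 203 CPM in EV and 173 to 193 CPM in KO of THP-1. Its effect was 0.70 in MV4-11 and 0.019 in THP-1 (difference 0.68, SE 0.124, edgeR FDR 0.0109). SLC38A1, a sodium-coupled importer of glutamine, stood at 66.9, 74.7 and 74.6 CPM in MV4-11 EV and 114, 102 and 110 CPM in KO. In THP-1 it was at 480 to 503 CPM in EV and 447 to 474 CPM in KO, which did not overlap, and the difference was 0.67 (SE 0.108, edgeR FDR 0.00309). The effect was called in MV4-11 and not in THP-1 (edgeR FDR 0.802), and SLC38A1 was the member of the glutamine list that passed the test.

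SLC9A7, a sodium and proton exchanger of the trans-Golgi network, rose from 7.43, 7.54 and 6.48 CPM to 13.2, 16.9 and 14 CPM in MV4-11, and its THP-1 libraries overlapped between 18.8 and 26.9 CPM (difference 1.09, SE 0.234, edgeR FDR 0.0423). The zinc importer SLC39A10 rose from 59.3 to 65.2 CPM in EV to 83.3 to 89.3 CPM in KO of MV4-11, and its THP-1 libraries overlapped between 109 and 129 CPM (difference 0.54, SE 0.111, edgeR FDR 0.0274). PLIN2, which coats lipid droplets and protects stored triglyceride, stood at 23.2, 21 and 23.4 CPM in MV4-11 EV and 35.3, 36.5 and 33.8 CPM in KO. Its THP-1 libraries held 74.7 to 86.4 CPM in EV and 64.3 to 80.2 CPM in KO and overlapped, and the difference was 0.75 (SE 0.142, edgeR FDR 0.0118).

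A kinase, a receptor subunit and an RNA-binding protein were among the other genes of this set. STK38L, a kinase of the NDR family related to the Hippo pathway, differed by 0.72 (edgeR FDR 0.0343), with 33.2 to 38.2 CPM in EV and 49.8 to 57.3 CPM in KO of MV4-11 and 26.5 to 30.3 against 24 to 26.5 CPM in THP-1. KCTD12, an auxiliary subunit of GABA-B receptors, differed by 0.73 (edgeR FDR 0.0423), with 13.7 to 18.3 against 21.7 to 24 CPM in MV4-11 and 71.2 to 87.9 against 64 to 72 CPM in THP-1. HNRNPLL, an RNA-binding protein that directs the splicing of CD45, and ABHD17B, an enzyme that removes palmitate from proteins, differed by 0.56 (edgeR FDR 0.0209) and 0.54 (edgeR FDR 0.0223).

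**Figure D2:**
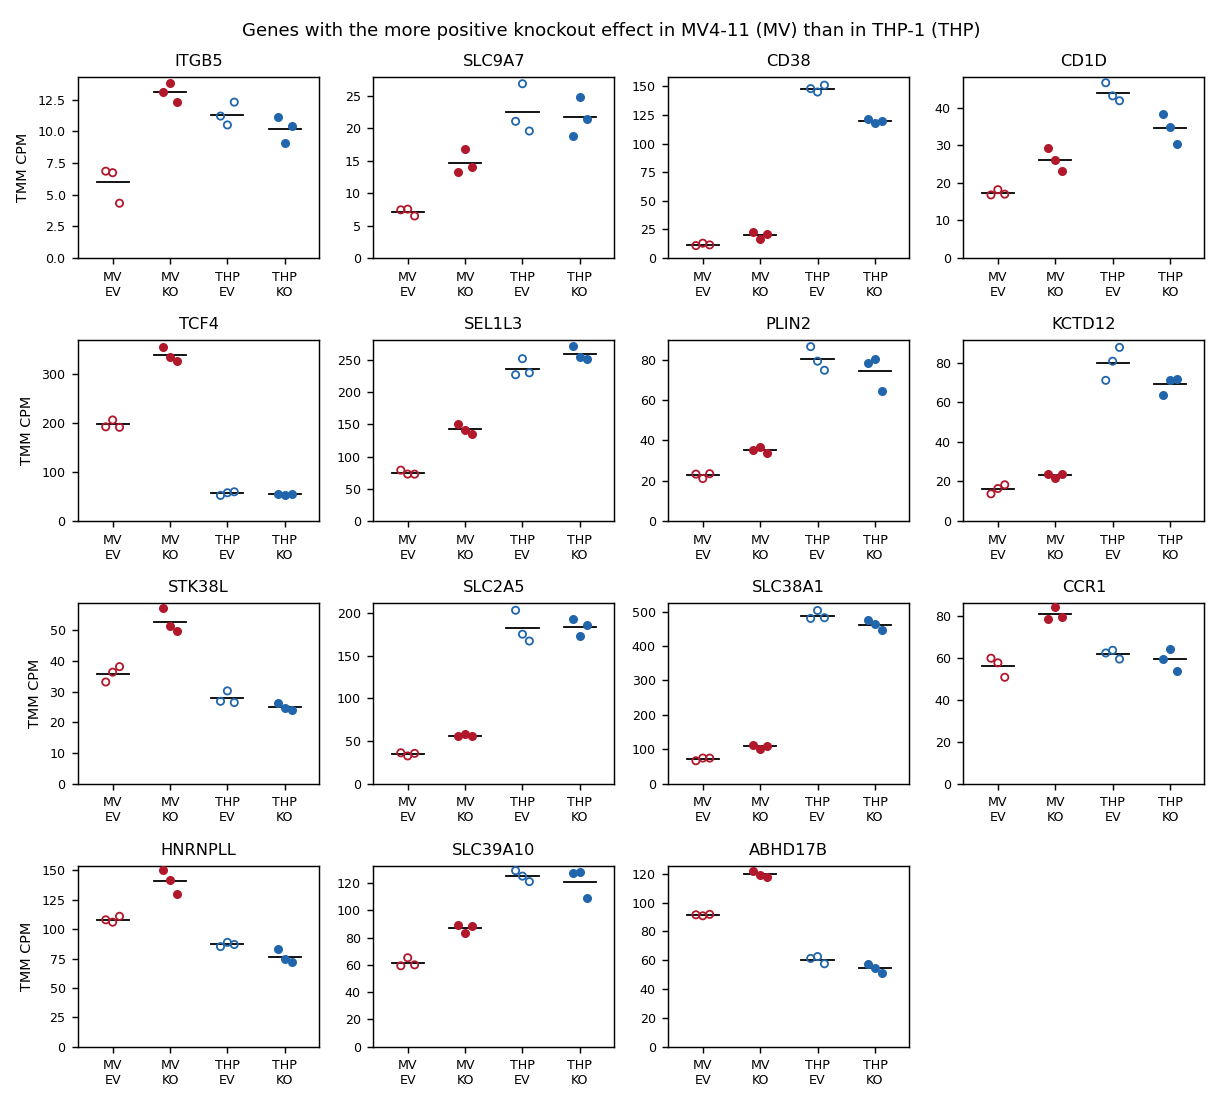
Levels of 15 of the 16 genes with the more positive effect in MV4-11, 1 panel per gene on its own axis from 0, in TMM-scaled CPM. Open points are EV and filled points KO libraries, red for MV4-11 and blue for THP-1, and bars are group means of 3 libraries. In MV4-11 the filled points lie above the open points in all 15 panels, while in THP-1 they lie below the open points or overlap with them.

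Among the genes with the more negative effect in MV4-11, 2 encode fatty acid desaturases. SCD places the first double bond in saturated fatty acids and makes oleate, and FADS2 starts the conversion of the essential fatty acids to longer polyunsaturated ones. Both are classical SREBP targets whose promoters also bind NF-Y at CCAAT boxes. The promoter of SCD is shown because SCD was the 1 gene called in both lines in opposite directions. Its window from 250 bases before to 50 bases after the RefSeq start (GRCh38.p14, chr10:100346983-100347282, plus strand) is printed with 2 CCAAT boxes in capitals:
SCD: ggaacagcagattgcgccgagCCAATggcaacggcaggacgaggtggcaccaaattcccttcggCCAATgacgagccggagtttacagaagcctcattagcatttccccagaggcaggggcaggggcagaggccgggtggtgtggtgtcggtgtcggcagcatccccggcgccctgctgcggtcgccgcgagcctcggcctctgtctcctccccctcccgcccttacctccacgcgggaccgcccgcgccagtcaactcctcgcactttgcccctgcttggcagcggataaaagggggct

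SCD stood at 281, 298 and 299 CPM in MV4-11 EV and 231, 241 and 242 CPM in KO. In THP-1 it stood at 128, 137 and 161 CPM in EV and 184, 187 and 210 CPM in KO. The groups did not overlap in either line, and the KO libraries were the lower ones in MV4-11 and the higher ones in THP-1. The effect was −0.30 in MV4-11 (edgeR FDR 0.042) and 0.45 in THP-1 (edgeR FDR 0.039), a difference of −0.74 (SE 0.123, edgeR FDR 0.00427). FADS2 stood at 171, 144 and 163 CPM in EV and 127, 157 and 138 CPM in KO of MV4-11, which overlapped, and at 55.1, 49.6 and 55.4 CPM in EV and 75.1, 79.3 and 84.4 CPM in KO of THP-1, which did not. Its difference of −0.76 (SE 0.131, edgeR FDR 0.00675) thus rested mainly on the THP-1 rise of 0.58. Exons of FADS2 overlap FADS1 on the opposite strand and FEN1 on its own strand, and the sources do not say if reads were counted by strand. FADS1 itself had a difference of −0.21 (edgeR FDR 0.57).

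PSAT1, TRIB3 and SLC1A3, which act in amino acid supply and its control, were lower after deletion in MV4-11. The glutamine importer SLC38A1, described above, was higher there. PSAT1, the aminotransferase of serine synthesis that uses glutamate, is a target of ATF4. The CCAAT box was present in 34% of promoter windows of the differing genes and in 34.8% of all windows. The promoter of PSAT1 is shown as another that holds it. The window (GRCh38.p14, chr9:78296875-78297174, plus strand) is printed with 3 CCAAT boxes in capitals:
PSAT1: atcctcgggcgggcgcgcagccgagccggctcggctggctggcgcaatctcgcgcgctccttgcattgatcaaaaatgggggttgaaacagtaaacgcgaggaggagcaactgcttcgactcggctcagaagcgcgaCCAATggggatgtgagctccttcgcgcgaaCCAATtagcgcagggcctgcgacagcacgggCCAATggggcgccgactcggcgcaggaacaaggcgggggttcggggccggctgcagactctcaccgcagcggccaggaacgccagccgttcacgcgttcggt

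PSAT1 stood at 36.6, 47.9 and 49.2 CPM in MV4-11 EV and 29.7, 25.3 and 32.3 CPM in KO, and at 45.3 to 47.1 CPM in EV and 51.3 to 54.6 CPM in KO of THP-1. The groups were apart in both lines, the THP-1 effect of 0.21 was not called (edgeR FDR 0.64), and the difference was −0.82 (SE 0.154, edgeR FDR 0.0118). TRIB3, a pseudokinase that ATF4 induces and that restrains AKT, was low in MV4-11, at 8.47, 7.54 and 6.63 CPM in EV and 5.83, 4.89 and 4.65 CPM in KO. In THP-1 it stood at 56.8, 55.2 and 54.4 CPM in EV and 75, 80.8 and 66 CPM in KO, so that KO was below EV in MV4-11 and above it in THP-1, where the effect of 0.42 was not called (edgeR FDR 0.143). The difference was −0.99 (SE 0.182, edgeR FDR 0.0109). SLC1A3, a transporter that brings glutamate and aspartate into cells, fell from 21.7, 24.2 and 22.8 CPM to 14.4, 10.5 and 12.2 CPM in MV4-11, and its THP-1 libraries overlapped between 29.7 and 35.6 CPM. Its effect was −0.89 in MV4-11 and 0.054 in THP-1, a difference of −0.95 (SE 0.178, edgeR FDR 0.0118).

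The gene with the smallest p of the 28 was ADGRL3 (ENSG00000150471, chromosome 4, 61200326 to 62078335, plus strand, GRCh38), an adhesion G protein-coupled receptor of the latrophilin family. It stood at 50.4, 50.6 and 53.4 CPM in MV4-11 EV and 21.8, 20.6 and 20.7 CPM in KO, and at 409, 400 and 427 CPM in EV and 417, 438 and 413 CPM in KO of THP-1. The MV4-11 KO libraries held less than any MV4-11 EV library, and the THP-1 groups overlapped. The difference was −1.33 (SE 0.111, edgeR FDR 5.57e-08), the largest in size of the 28. THSD7A, a membrane protein with thrombospondin repeats, stood at 49.6, 56.9 and 55 CPM in MV4-11 EV and 26.2, 23.3 and 28.5 CPM in KO, and at 391 to 443 CPM in EV and 382 to 395 CPM in KO of THP-1 (difference −0.93, SE 0.12, edgeR FDR 1.65e-04). GRB10, an adaptor that binds and dampens the insulin receptor and other receptor kinases, stood at 17.6, 21 and 17.7 CPM in MV4-11 EV and 7.82, 7.27 and 9.8 CPM in KO. Its THP-1 libraries overlapped between 15 and 20.9 CPM, and the difference was −1.29 (SE 0.214, edgeR FDR 0.00427).

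CD93, a C-type lectin-like surface protein of myeloid and stem cells, stood at 13, 14.3 and 13.6 CPM in MV4-11 EV and 6.97, 7.77 and 8.67 CPM in KO, against 234 to 264 CPM in EV and 241 to 252 CPM in KO of THP-1. The difference was −0.75 (SE 0.141, edgeR FDR 0.0118). LGR4, a receptor for R-spondins that strengthens WNT signalling, stood at 188, 198 and 201 CPM in MV4-11 EV and 129, 120 and 123 CPM in KO, and its THP-1 libraries overlapped between 153 and 183 CPM (difference −0.58, SE 0.105, edgeR FDR 0.0109). SAMSN1 was called in THP-1 and not in MV4-11, where its effect was −0.39 (edgeR FDR 0.123). This gene, an adaptor of lymphoid and myeloid cells, stood at 30.5, 36.2 and 27.7 CPM in THP-1 EV and 51.1, 50.6 and 48.9 CPM in THP-1 KO, a rise of 0.67 (edgeR FDR 0.039), while its MV4-11 libraries overlapped, with 18.2 to 23.8 CPM in EV and 12.2 to 18.3 CPM in KO.

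**Figure D3:**
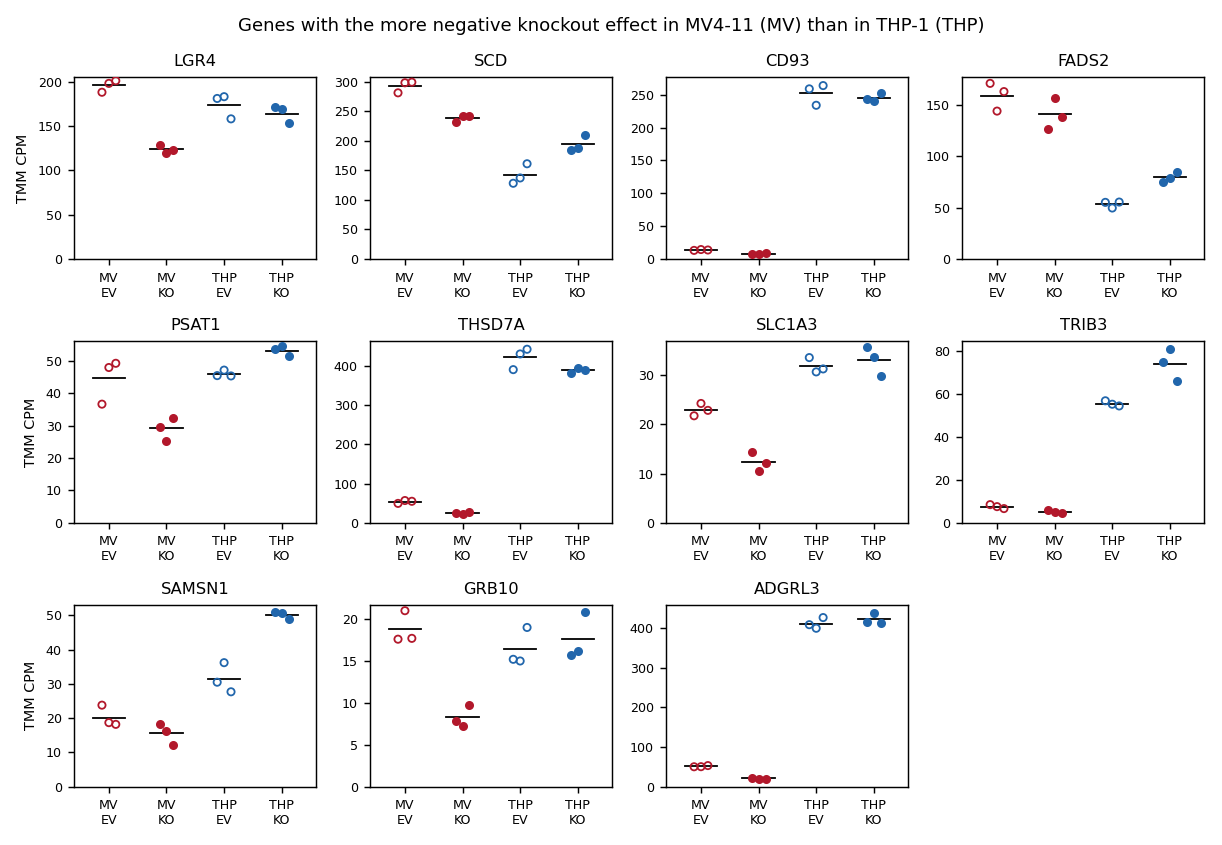
Levels of 11 of the 12 genes with the more negative effect in MV4-11, 1 panel per gene on its own axis from 0, in TMM-scaled CPM, with open points for EV and filled points for KO libraries and bars for group means of 3. The filled MV4-11 points lie below the open ones except in FADS2 and SAMSN1, where they overlap, and the filled THP-1 points lie above the open ones in SCD, FADS2, PSAT1, TRIB3 and SAMSN1.

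The EV levels of the 28 genes differed between the lines by 1.03-fold (PSAT1) to 18.5-fold (CD93), and none was under 3 CPM in either. CCR1, LGR4 and GRB10 were also alike, at 1.1-fold, 1.13-fold and 1.15-fold. Of the 28, 19 stood higher in THP-1 EV and 9 higher in MV4-11 EV, and the same split over all tested genes was not counted. CD93 was 18.5-fold, CD38 12.6-fold, ADGRL3 8.02-fold, THSD7A 7.83-fold and TRIB3 7.34-fold higher in THP-1 EV, whereas TCF4 was 3.5-fold and FADS2 2.98-fold higher in MV4-11 EV. The lines were closer in KO than in EV in 12 of the 28 genes (42.9%), beside 51.7% of all tested genes with counts in all 4 groups. For CD38 the ratio between lines went from 12.6 in EV to 6 in KO, and for SCD from 2.06 to 1.23. It went the other way for ADGRL3, from 8.02 to 20.1, for CD93, from 18.5 to 31.4, and for TRIB3, from 7.34 to 14.4. EV libraries enter both the starting ratio and the effect, so this is a description.

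The effects in Molm-14, the other line with FLT3-ITD, are not part of the contrast, but Molm-14 libraries shared in the estimate of the spread that decided which genes were called, so the counts here are a description. KO and EV libraries of Molm-14 did not overlap in 19 of the 28 genes, beside 16.4% of all tested genes, and 7 of the 28 were called at a 5% FDR, beside 2.4% of all tested genes. Among genes with at least 100 counts on average the call rate was 2.67% over all tested genes, against 7 of 27. Of the 7, SLC9A7, SEL1L3, KCTD12, CCR1 and LGR4 moved as in MV4-11, and CD38 and CD93 moved the other way. When the contrast was fitted in the 12 MV4-11 and THP-1 libraries alone, 20 of the 28 kept their call, and 4 of these 20 (SEL1L3, LGR4, CD38 and CD93) were among the 7. SLC9A7, KCTD12 and CCR1 then missed the threshold in the contrast (edgeR FDR 0.0661, 0.138 and 0.105), and the sign in Molm-14 was that of MV4-11 in 12 of the 20. The Molm-14 effect had the sign of the MV4-11 effect in 18 of the 28 genes (64.3%) and in 54.9% of all tested genes, with 12 of the 16 genes of the positive set and 6 of the 12 genes of the negative set. It had the sign of the THP-1 effect in 11 of the 28 (39.3%) and in 56.9% of all tested genes.

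Among single genes, CCR1 went from 20.9, 20.7 and 22.4 CPM in Molm-14 EV to 45.2, 51.2 and 47.3 CPM in KO, a rise of 1.17 (SE 0.0993, edgeR FDR 2.59e-08), more than its 0.53 in MV4-11. SLC9A7 went from 0.504, 0.675 and 1.19 CPM to 2.36, 3.99 and 3.44 CPM (2.02, SE 0.348, edgeR FDR 6.32e-04), a fold that rests on 3, 6 and 9 counts in EV. SEL1L3 went from 184, 183 and 191 CPM to 243, 257 and 259 CPM (0.44, SE 0.0719, edgeR FDR 2.99e-04). CCR1, SLC9A7 and SEL1L3 were higher after deletion in both lines with FLT3-ITD. CD38 moved as in THP-1, from 67.9, 82.8 and 77.5 CPM to 59.1, 57.1 and 61.3 CPM (−0.37, edgeR FDR 0.0304). CD93 went up in Molm-14, from 88.3 to 94.2 CPM in EV to 119 to 134 CPM in KO (0.48, edgeR FDR 2.99e-04), and fell in MV4-11. ADGRL3, GRB10 and THSD7A, whose falls in MV4-11 were the largest, had effects between −0.10 and 0.084 in Molm-14, none of them called. SCD and FADS2 stood at −0.27 (edgeR FDR 0.0922) and −0.18 (edgeR FDR 0.495), on the side of MV4-11. PSAT1 and TRIB3 stood at 0.27 (edgeR FDR 0.186) and 0.073 (edgeR FDR 0.886), on the side of THP-1. SLC1A3 stood at −0.37 (edgeR FDR 0.165), on the side of MV4-11. No difference between Molm-14 and the other lines was tested.

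**Figure D4:**
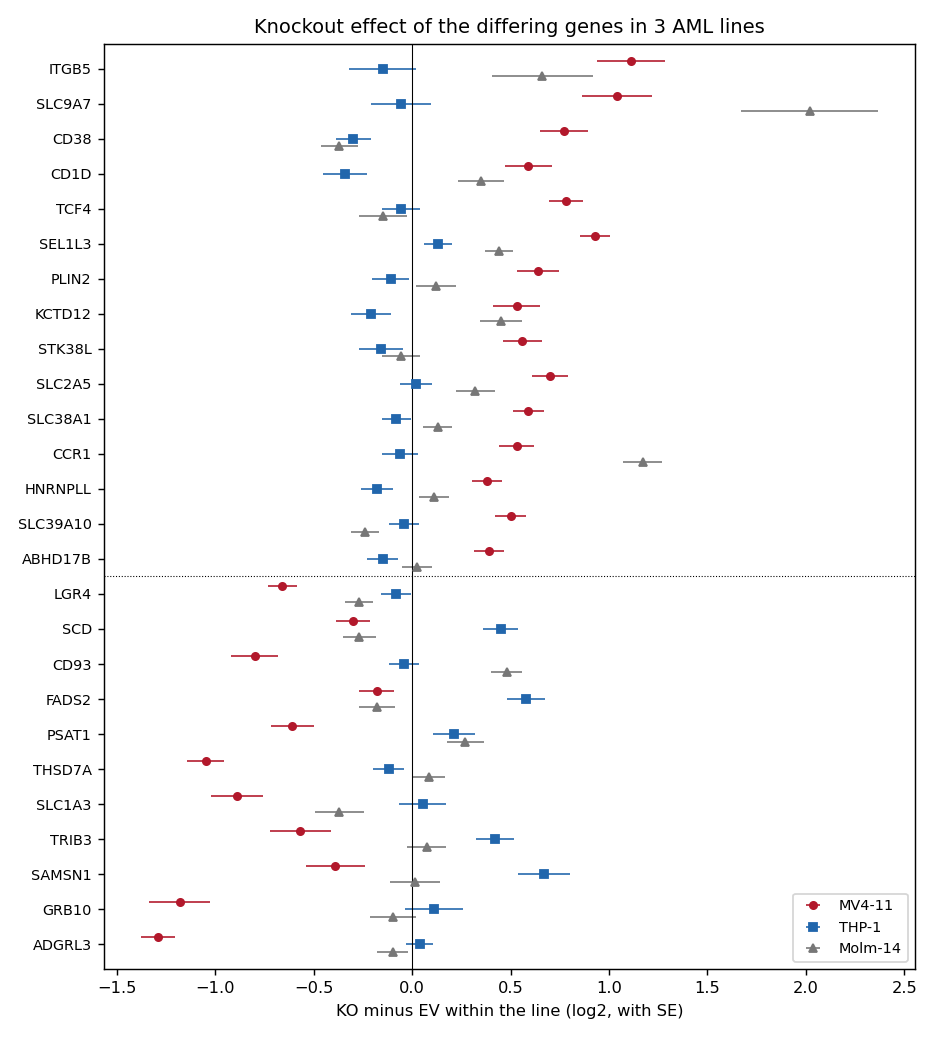
Effect of the MPC1 deletion (KO minus EV, log2, with its standard error) on 26 of the 28 genes in MV4-11 (red circles), THP-1 (blue squares) and Molm-14 (grey triangles), ordered by the difference between MV4-11 and THP-1, with a dotted line between the 15 positive and the 11 negative differences shown. Molm-14 lies beyond MV4-11 for SLC9A7 and CCR1, and beside MV4-11 for KCTD12, SCD and FADS2. It lies beside THP-1 for CD38, TCF4, PSAT1, THSD7A and ADGRL3, and on the far side of THP-1 for CD93.

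Pathways were described over lists written by hand, by their counts and their median beside a median of 0.0065 log2 units over all tested genes. Of all tested genes, 49% had negative and 51% positive differences, and 3.79% had a negative difference with an unadjusted p under 0.05 in edgeR. In the list of fatty acid synthesis and desaturation, 2 of 15 genes differed (SCD and FADS2), 10 of 15 had negative differences, and the median was −0.21, or −0.18 without ME1. ME1, the cytosolic malic enzyme that makes NADPH for lipid synthesis, was at 0 in the 3 MV4-11 KO libraries and had a mean of 0.527 CPM in EV, too few counts for a fold, and 33.1 and 29.4 CPM in THP-1 EV and KO. Cholesterol synthesis had 0 of 24 genes past the threshold, 19 with negative differences (6 at an unadjusted p under 0.05 in edgeR) and a median of −0.20. Within lines, its median effect was 0.011 in MV4-11 and 0.19 in THP-1, beside 0.015 and 0.0034 over all tested genes. Of the 24 genes, DESeq2 called 1 (LSS) and limma voom 4, among them LSS, DHCR7 and TM7SF2. LSS, the cyclase that forms lanosterol, came nearest, with 52.6 CPM in EV and 40.2 CPM in KO of MV4-11 against 47.2 and 58.3 CPM in THP-1 (difference −0.69, edgeR FDR 0.0813). DHCR7, the last reductase of the pathway, was called in THP-1 (0.56, edgeR FDR 0.0329) and stood at −0.037 in MV4-11, with a difference of −0.60 (edgeR FDR 0.13).

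In the ATF4 list, 2 of 32 genes differed (TRIB3 and PSAT1). Of the 32, 24 had negative differences, 8 of them at an unadjusted p under 0.05 in edgeR. The median difference was −0.15, or −0.16 without STC2, which had a group at 0. Within lines, the median effect of this list was 0.013 in MV4-11 and 0.18 in THP-1, so the list as a whole was not lower in MV4-11 KO. ATF5, a factor that ATF4 induces, stood at −0.68 in MV4-11 and 0.18 in THP-1 (difference −0.86, edgeR FDR 0.311), and SLC7A5, the leucine importer, at −0.48 and 0.12 (difference −0.60, edgeR FDR 0.399). ATF4 itself differed by −0.13 (edgeR FDR 0.832). VLDLR went the other way, with a difference of 0.45 (edgeR FDR 0.165). The medians of the lipid, cholesterol and ATF4 lists were negative in every alternative fit tried, between −0.29 and −0.12. Negative differences also prevailed in lists outside lipid and amino acid supply. They made up 57 of 76 cytosolic ribosomal protein genes (median −0.11) and 25 of 37 nuclear complex III, IV and V subunits (median −0.056), with 0 past the threshold in either list.

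In the hand-written list for the primary granules, the protease stores of early neutrophil precursors, none of 14 tested genes passed the threshold in the contrast. Of the 14, 12 had negative differences, 8 of them at an unadjusted p under 0.05 in edgeR. The median was −0.45, or −0.52 without BPI, which had a group at 0. DESeq2 called 6 of the 14 (CST7, CTSG, RNASE2, PRTN3, ELANE and SERPINB10) and limma voom 5 (CST7, CTSG, AZU1, PRTN3 and ELANE), all lower in MV4-11 relative to THP-1. PRTN3 stood at −0.72 in MV4-11 and −0.00095 in THP-1 (difference −0.72, edgeR FDR 0.0782). CTSG stood at −0.25 and 0.35. SERPINB10, an inhibitor of proteases, rose in THP-1 from 42.3 to 70.1 CPM and stood at 1.61 and 0.839 CPM in MV4-11 (difference −1.66, edgeR FDR 0.0813). Its MV4-11 side rests on 4 to 13 counts per library. Among lymphoid and dendritic regulators, 1 of 21 genes differed (TCF4), 17 had positive differences and the median was 0.26 (0.25 without EBF1 and IKZF3, which had a group at 0), with ID2, a partner of helix-loop-helix factors, at 0.42 (edgeR FDR 0.371) and IL3RA, the interleukin-3 receptor α chain, at 0.39 (edgeR FDR 0.443). Of 10 class II presentation genes none differed in edgeR, DESeq2 or limma voom, with 2 at an unadjusted p under 0.05 in edgeR, and HLA-DRA stood at 25.1 CPM in EV and 44.5 CPM in KO of MV4-11 against 6.33 and 6.53 CPM in THP-1 (difference 0.79, edgeR FDR 0.295).

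The 13 protein genes of the mitochondrial genome all had negative differences, with a median of −0.53. None passed the threshold in edgeR (3 had an unadjusted p under 0.05) or DESeq2, and limma voom called MT-CO2. Their sum ran from 2060 to 3880 CPM in MV4-11 EV and 1380 to 1960 CPM in MV4-11 KO, and from 1790 to 3120 CPM in EV and 1710 to 2360 CPM in KO of THP-1. The libraries with the highest sums were MV4-11 EV 2 and EV 3, and the part of this shift in the genes above was not tested. Of the other pathways near the carrier, 0 of 25 TCA cycle genes, 0 of 25 genes of glycolysis and lactate export, 0 of 36 nuclear complex I subunits and 0 of 15 genes of the carrier and of pyruvate dehydrogenase control passed the test in edgeR, with 4, 2, 4 and 2 genes at an unadjusted p under 0.05, beside 9.05% of all tested genes. DESeq2 called none of these, and limma voom called ME1 of the TCA cycle list. Of 18 genes of glutamine metabolism 1 differed (SLC38A1), and of 18 integrins 1 (ITGB5), of 12 chemotactic receptors 1 (CCR1) and of 13 adhesion G protein-coupled receptors 1 (ADGRL3).

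**Figure D5:**
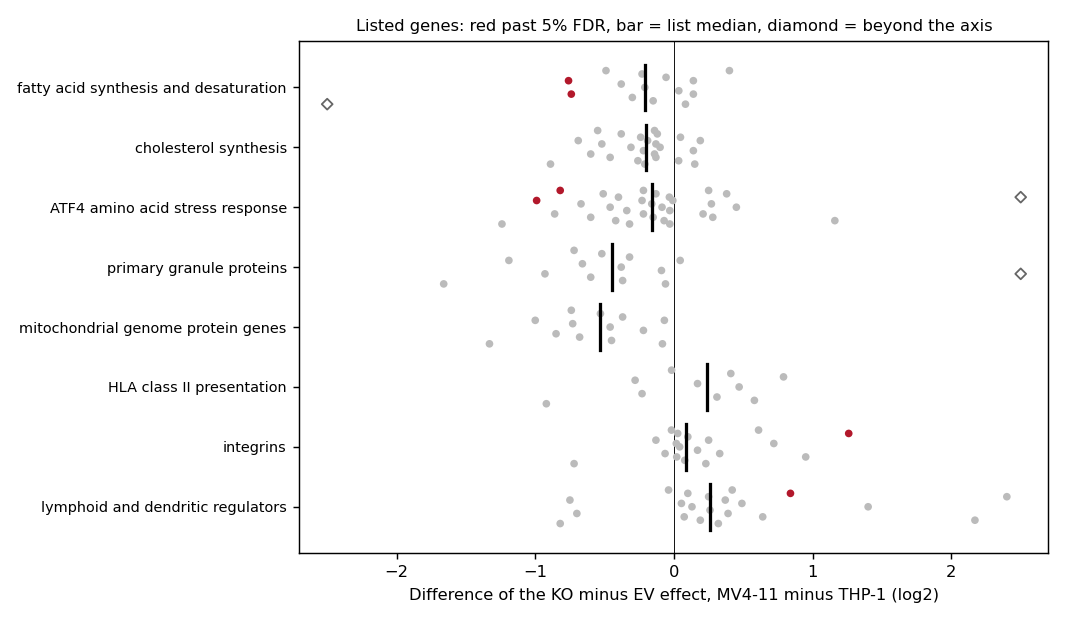
Difference of the effect (MV4-11 minus THP-1, log2) on the x axis for the tested genes of 8 lists, 1 point per gene, red where the gene passed a 5% FDR, with a black bar at the list median and open diamonds at the edge for genes beyond 2.5 log2 units. The bars of the lipid, cholesterol, ATF4, granule and mitochondrial genome lists lie left of 0 and those of the class II, integrin and lymphoid lists right of it, with few red points in any list.

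Promoter windows of 300 bases were searched on both strands for 8 motifs, in 15522 windows of tested genes and 53 windows of 25 of the 28 genes that had one. CCAAT, the NF-Y box, was present in 34% of the windows of the differing genes and in 34.8% of all windows. The E-box CACGTG was present in 3.77% against 9.25%, the CRE core TGACGT in 1.89% against 10.4%, the ETS core CCGGAAG in 11.3% against 17%, the AP-1 motif TGANTCA in 7.55% against 4.98% and the STAT motif TTCNNNGAA in 11.3% against 6.2%. The interferon response pair, GAAA repeated after any 2 bases, was present in 7.55% against 3.07%. Windows of 1 gene overlap or share start regions, so these are descriptions of few sequences. The spaced E-box pair that MondoA complexes bind, CACGNG and CNCGNG with 5 bases between them, was in none of the 53 windows and in 0.792% of all windows, 1 of which belonged to TXNIP, the shared gene shown above. That window (GRCh38.p14, chr1:145996530-145996829, minus strand) is printed with the pair in capitals:
TXNIP: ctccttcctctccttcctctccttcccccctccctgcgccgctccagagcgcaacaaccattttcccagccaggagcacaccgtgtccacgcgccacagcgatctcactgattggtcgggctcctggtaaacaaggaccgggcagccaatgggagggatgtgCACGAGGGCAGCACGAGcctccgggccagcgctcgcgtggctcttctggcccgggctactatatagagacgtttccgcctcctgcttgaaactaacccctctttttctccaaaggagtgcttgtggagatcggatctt

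Of the 26 genes named here, 7 share exon sequence with a gene on the opposite strand (TCF4, LGR4, FADS2, THSD7A, SLC1A3, SAMSN1 and ADGRL3), and reads of such partners could be counted with them if the strand was not used.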

How the data were processed

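RNA was sequenced from 18 libraries of the knockout experiment, of which the 12 of MV4-11 and THP-1 form the contrast. Per the labels, RNA was extracted with a miRNeasy kit and treated with DNase, and ribosomal RNA was depleted before stranded library preparation. The authors trimmed reads with cutadapt 1.16, aligned them to GRCh38 with STAR 2.7.6a and counted them per gene with featureCounts 1.6.3 (the submitters' processing notes also name DESeq2 1.30.1), and the deposited values are raw counts per gene, whole numbers with no normalization. Neither strand use nor the treatment of reads shared by near-identical genes is given in the sources used here. The counts of the overexpression experiment were not used here.

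Symbols, positions and exon overlaps came from a GENCODE annotation of GRCh38 (56948 of 58051 gene IDs matched). Genes were filtered with filterByExpr, scaled with TMM and tested by quasi-likelihood with robust dispersions in edgeR 4.0.16 (R 4.3.3), with 1 mean per group over all 18 libraries, so that Molm-14 adds to the estimate of the spread only. The contrast was tested two-sided, with Benjamini-Hochberg adjustment over 14490 genes and an FDR threshold of 5%. The fit was checked on simulated counts. Pairs of replicates differed by more than sampling noise (chi-square per degree of freedom 1.5 to 11.8). Within MV4-11 EV the value was 11.8 and 6.96 for EV 1 with EV 2 and EV 3, and 2.48 for EV 2 with EV 3. All libraries were kept in the main fit. The genes named are those that differed, members of 40 hand-written lists, genes near the threshold, and genes called in both lines or in THP-1. Of the 28, 2 are not reported here by name. The members and the lists were chosen with earlier results of these data known. ME1, TM7SF2, AZU1, CST7, RNASE2, ELANE, MT-CO2 and the list genes named without having passed the threshold were chosen after their values were seen. Alternatives were RLE and upper-quartile scaling, no filter, DESeq2 1.42.0, limma 3.58.1 (voom with sample weights), the 12 libraries alone, a replicate block, and each library left out. Promoter windows were RefSeq sequences on GRCh38.p14, which matched 10681 of the 14490 tested symbols and 25 of the 28 differing genes by symbol.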

Additional observations from a re-analysis of the deposited data

Results flagged for a closer look

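The difference between MV4-11 and THP-1 was itself tested for each of the 28 genes, as a contrast in edgeR at a 5% FDR, and the differences of 26 of them (log2, MV4-11 effect minus THP-1 effect) are given here with how they stood when each of the 12 libraries was left out in turn. All 28 kept their sign in every such fit.

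The call held in all 12 fits for 13 genes. These were ADGRL3 (−1.33, between −1.35 and −1.30), GRB10 (−1.29), CD38 (1.07), SLC1A3 (−0.95), THSD7A (−0.93), CD1D (0.93), TCF4 (0.84), SEL1L3 (0.80), FADS2 (−0.76), SCD (−0.74), SLC2A5 (0.68), SLC38A1 (0.67) and LGR4 (−0.58). In 5 genes the call was lost in 1 of the 12 fits. They were SAMSN1 (−1.06) and TRIB3 (−0.99), both without MV4-11 KO 3 (edgeR FDR 0.0565 each), PSAT1 (−0.82) without MV4-11 EV 3 (edgeR FDR 0.0608), PLIN2 (0.75) without THP-1 EV 1 (edgeR FDR 0.0604) and CD93 (−0.75) without MV4-11 KO 1 (edgeR FDR 0.085). ITGB5 (1.26), with the fewest counts, lost it without MV4-11 EV 3 and without THP-1 KO 2, with an edgeR FDR of up to 0.0702.

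The other 9 genes, whose adjusted p was nearest to the threshold, lost the call in 6 to 9 of the 12 fits. Of these, SLC9A7 (1.09), CCR1 (0.59) and KCTD12 (0.73) lost it in 9, with a highest edgeR FDR of 0.186 (without THP-1 EV 2), 0.214 (without MV4-11 EV 3) and 0.142 (without MV4-11 KO 1). STK38L (0.72) and ABHD17B (0.54) lost it in 8, with a highest edgeR FDR of 0.147 and 0.0904, both without THP-1 EV 2. HNRNPLL (0.56) and SLC39A10 (0.54) lost it in 6, with a highest edgeR FDR of 0.102 (without MV4-11 KO 1) and 0.107 (without MV4-11 EV 3). For each of the 12 libraries, leaving it out ended the call of at least 1 of these 9 genes.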

How the results depend on the processing

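The 28 differing genes all kept the sign of the difference in the 20 alternative fits. The count was 29 with RLE and 29 with upper-quartile factors, 80 (35 positive, 45 negative) with no count filter, 65 (33 and 32) with DESeq2, 105 (60 and 45) with limma voom and sample weights, and 20 (8 and 12) in the 12 libraries alone, where fewer libraries estimate the spread. These fits kept 28, 27, 27, 28, 28 and 20 of the 28. A replicate block by the number in the labels gave 52 (27 and 25), and one in THP-1 alone, added after the data were seen, gave 47 (26 and 21), each with all 28 kept. The numbers were not shown to pair libraries: for numbers 1 to 3 the correlations of EV with KO deviations were 0.01, −0.248 and 0.082 within MV4-11. They were −0.032, −0.12 and 0.128 for Molm-14, and 0.179, 0.099 and 0.33 for THP-1, and not every library correlated best with its own number. Leaving out 1 library gave between 18 (without MV4-11 EV 3 or KO 1) and 53 calls (without MV4-11 EV 1), 8 to 25 positive (25 without THP-1 EV 3) and 9 to 31 negative. The cause of these shifts was not tested. With an unadjusted p under 0.05 as the call within a line, 18 genes were called in MV4-11 alone, 1 in THP-1 alone and 9 in both with opposite directions (among them CD38, CD1D, KCTD12, HNRNPLL, SCD, TRIB3 and SAMSN1). Among genes that did not differ, DHCR7 passed with limma voom (−0.66, FDR 0.0415) and SERPINB10 with no filter (edgeR FDR 0.0201) and DESeq2 (FDR 0.041), while MPC1 stayed between −0.39 and −0.27. Over the leave-one-out fits the median of the granule list ran from −0.60 to −0.39, of the mitochondrial genome list from −0.74 to −0.43, of the class II list from 0.038 to 0.43 and of the integrins from 0.012 to 0.16.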
